A study of Saccharomyces cerevisiae with 103 samples.

Results

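The lower glycolysis and fermentation genes of budding yeast are 10 genes, taken by their systematic names out of 6692 genes in the deposited tables: TDH1 (YJL052W), TDH2 (YJR009C), TDH3 (YGR192C), PGK1 (YCR012W), GPM1 (YKL152C), ENO1 (YGR254W), ENO2 (YHR174W), CDC19 (YAL038W), PDC1 (YLR044C) and ADH1 (YOL086C). All 10 were found in the RNA count, poly(A) tag and tail tables of all 5 experiments. The strain was SK1, a Saccharomyces cerevisiae background that sporulates quickly, and all groups were cultures of it.

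The study asked how mRNA levels and poly(A) tails change as cells enter and leave meiosis and when mRNA decay is disturbed. Each of 50 cultures or time points gave an RNA-seq library and a poly(A) tag library, and 3 further RNA libraries were made in another order of steps. In the sporulation series, wild-type cells were sampled at 0 to 9 h in sporulation medium (SPO), with 2 libraries per hour. In the return-to-growth series, wild-type cells were moved from SPO at 1 h or at 7 h into rich medium with 2% glucose (YPD) and sampled before transfer and 5 and 20 min after it, with 2 libraries per point. The mutant series held homozygous deletions of ccr4, pop2 and xrn1 beside wild type, each in vegetative growth in YPD, in premeiotic culture in BYTA medium after a preculture in YPD with more glucose, and after 5 h in SPO, with 1 library each. A degron-Xrn1 strain was sampled 30 and 0 min after auxin and copper were added, and a pCup1-Ccr4 strain 60 and 0 min after copper was added, each beside an untagged wild type in YPD, with 1 library each. Ccr4 and Pop2 remove poly(A) tails as the deadenylases of the Ccr4-Not complex, and Xrn1 degrades decapped mRNA from its 5′ end. Whether replicates 1 and 2 were separate cultures is not stated in the labels, so the spread behind every p-value may be technical.

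Lower glycolysis turns glyceraldehyde 3-phosphate into pyruvate, and yeast fermentation turns the pyruvate into ethanol. The steps run by the TDH, PGK1, GPM1 and ENO enzymes are reversible and also serve gluconeogenesis on acetate, whereas pyruvate kinase (CDC19), pyruvate decarboxylase (PDC1) and alcohol dehydrogenase 1 (ADH1) act in the direction of ethanol. In cells growing on glucose these mRNAs are among the most abundant of yeast, and sporulation medium supplies acetate and no glucose.

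The genes hold 2 sets of near-identical copies, the TDH genes of 999 coding bases each and the ENO genes of 1314 coding bases each, so the last 90 coding bases, up to and including the stop codon, are shown for the TDH and ENO genes. A read that falls wholly within a stretch in lower case matches the compared copy as well. They are printed 5′ to 3′ on the coding strand from the S288C reference of RefSeq (build R64, sacCer3), not from SK1. Capitals mark the bases that differ from the copy named in the brackets.
TDH1 (chrX:339180-339269, plus strand, against TDH3): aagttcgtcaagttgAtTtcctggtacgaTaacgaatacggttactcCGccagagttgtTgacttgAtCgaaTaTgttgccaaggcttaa
TDH2 (chrX:453683-453772, minus strand, against TDH3): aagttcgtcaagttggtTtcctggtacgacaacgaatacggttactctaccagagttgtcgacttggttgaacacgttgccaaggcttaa
TDH3 (chrVII:882812-882901, minus strand, against TDH1): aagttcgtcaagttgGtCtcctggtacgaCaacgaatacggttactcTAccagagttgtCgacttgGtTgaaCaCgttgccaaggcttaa
ENO1 (chrVII:1002151-1002240, plus strand, against ENO2): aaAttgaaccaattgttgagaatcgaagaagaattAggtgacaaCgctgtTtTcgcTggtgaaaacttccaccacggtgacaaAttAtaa
ENO2 (chrVIII:452551-452640, plus strand, against ENO1): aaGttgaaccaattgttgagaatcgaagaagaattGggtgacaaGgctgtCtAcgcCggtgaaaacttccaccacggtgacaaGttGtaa

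TDH2 differed from TDH3 at 1 of these 90 bases, and their last 72 coding bases were identical. TDH1 differed from TDH3 at 10 of 90 bases and ENO1 from ENO2 at 8 of 90. Over the whole coding sequence TDH2 and TDH3 were 95.8% identical, TDH1 and TDH3 88.9%, TDH1 and TDH2 90.2%, and ENO1 and ENO2 94.8%. Of all 50-base windows, 24.4% were shared between TDH2 and TDH3, 8.84% between TDH1 and TDH3 and 23.6% between ENO1 and ENO2. The sources used here do not say how reads that match several genes were counted, so the levels of TDH2 and TDH3 in particular are uncertain relative to each other.

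The other genes lie apart in the genome. In the R64 reference, PGK1 is at chrIII:137746-138996, GPM1 at chrXI:163642-164385, CDC19 at chrI:71786-73288, PDC1 at chrXII:232390-234081 and ADH1 at chrXV:159548-160594. The coding sequence of each of the 10 genes is 1 exon. Glycolytic promoters of yeast are known for CTTCC motifs bound by the activator Gcr1, so the 700 bases before each start codon were searched for CTTCC on both strands, with overlapping matches counted. A cluster of at least 3 matches within 60 bases was found before 4 of the 10 genes (40.0%), against 81 of 5999 protein-coding genes with the full window (1.35%). The 4 clusters, each with 5 flanking bases, are shown on the strand of the gene with CTTCC in capitals.
PGK1 (chrIII:137285-137324, plus strand, 461 to 422 bases before the start codon): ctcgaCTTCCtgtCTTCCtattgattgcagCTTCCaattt
CDC19 (chrI:71469-71534, plus strand, 317 to 252 bases before the start codon): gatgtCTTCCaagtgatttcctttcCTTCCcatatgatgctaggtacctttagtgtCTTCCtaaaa
PDC1 (chrXII:234652-234710, minus strand, 629 to 571 bases before the start codon): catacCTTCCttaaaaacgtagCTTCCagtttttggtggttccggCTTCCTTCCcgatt
ADH1 (chrXV:160766-160832, minus strand, 238 to 172 bases before the start codon): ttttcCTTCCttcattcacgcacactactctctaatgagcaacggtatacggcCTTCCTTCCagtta

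At least 1 CTTCC stood before 9 of the 10 genes, against 77.9% of all genes, and TDH3 had none in this window. A match of letters is a description and not a binding site.

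The RNA libraries held 364038 to 3821895 counts in the sporulation series, 132594 to 4689131 in return to growth, 178152 to 1596718 in the mutants, 1299404 to 4583279 with degron-Xrn1 and 1426300 to 2011448 with pCup1-Ccr4. The tag libraries held 71930 to 314734 tags in the sporulation series and 452277 to 8926553 in the others. The shallowest RNA library was replicate 2 before transfer at 7 h, with 132594 counts. The deleted genes were at or near 0 in their own strains (CCR4 at 0, 1.8 and 0 CPM, scaled counts-per-million, in ccr4 cells, POP2 at 0 in all 3 pop2 libraries, XRN1 at 2.7, 1.8 and 4.5 in xrn1 cells), against 57.8 to 367 for the same genes in wild type. Of 8 early meiotic markers (IME1, IME2, SPO11, DMC1, HOP1, REC8, ZIP1, MEI4), 7 rose at 1 h of SPO and 8 at 5 h, and all 5 middle markers (NDT80, SPS1, SPS4, SMK1, SPR3) rose at 5 h. At 3 h the middle markers summed to 5773 CPM in replicate 1 and 558 in replicate 2, so the replicates of that hour stood apart.

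All 10 genes fell at the start of sporulation. Together they took 0.641 and 0.672% of the RNA counts after 1 h in SPO, against 7.43 and 6.91% at 0 h. At 1 h all 10 had fallen by edgeR's quasi-likelihood test with Benjamini-Hochberg adjustment over all genes, when 29.3% of the genes tested had, and the members' median log2 change was -4.49 beside 0.02 over all genes. The medium of the 0 h cells before SPO is not given here, so 0 h need not stand for growth on glucose. The 8 early meiotic markers summed to 1045 and 1244 CPM at 0 h. In the mutant series, scaled apart, they summed to 40.5 CPM in vegetative and 3272 CPM in premeiotic wild type. In bulk cultures, fewer cells of a type and less RNA per cell cannot be told apart. Levels are CPM scaled by TMM, and changes are on the log2 scale.

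The enzymes shared with gluconeogenesis fell to different depths at 1 h. TDH1, a glyceraldehyde-3-phosphate dehydrogenase, had 46.6 and 52.1 CPM at 1 h, against 4072 and 4253 at 0 h. Its log2 change of -6.39 ± 0.39 (SE, adjusted p = 6.55e-11) was the largest of the 10. TDH3, the dehydrogenase copy with the highest RNA count of the 3 at 0 h, had 2805 and 3265 CPM at 1 h, against 18822 and 18435 at 0 h, and changed least of the 10 (log2 -2.62 ± 0.19, adjusted p = 8.75e-10). TDH2 fell by 3.78 ± 0.21 on the log2 scale, which lies between its copies. In none of the 3 genes did the 1 h and 0 h libraries overlap.

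GPM1, the phosphoglycerate mutase, had 72.9 and 104 CPM at 1 h, against 5278 and 5620 at 0 h (log2 -5.93 ± 0.38, adjusted p = 1.47e-10). PGK1, the phosphoglycerate kinase, had 224 and 322 CPM at 1 h, against 6416 and 5997 at 0 h (log2 -4.5 ± 0.24). The enolase genes fell by 3.80 ± 0.21 (ENO1) and 4.48 ± 0.28 (ENO2). Each of these changes was more than 10 times its standard error.

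Among the enzymes on the way to ethanol, PDC1 had 87.1 and 106 CPM at 1 h, against 5949 and 5271 at 0 h (log2 -5.85 ± 0.27, adjusted p = 2.66e-12). CDC19 fell by 4.71 ± 0.26 on the log2 scale. ADH1, the main alcohol dehydrogenase of growth on glucose, was at 1399 and 956 CPM at 1 h, against 8813 and 6244 at 0 h, a log2 change of -2.68 ± 0.33 (adjusted p = 1.23e-06). Its replicates were the most unlike of the 3 genes at both hours, but did not overlap between hours.

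The low level lasted, with a partial step up at 2 h. The 10 genes took 0.985 and 1.04% of RNA counts at 2 h, 0.645 and 0.661% at 3 h, 0.291 and 0.258% at 5 h, 0.122 and 0.110% at 7 h and 0.184 and 0.151% at 9 h. Both libraries of 2 h were above both libraries of 1 h, which was not tested. CDC19 was at 144 and 197 CPM at 1 h, 373 and 585 CPM at 2 h and 211 and 235 CPM at 5 h, so it showed the same step.

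All 10 genes were lower than at 0 h also at 5 h (edgeR, 37.6% of all genes tested had fallen) and at 9 h (34.1%). The members' median log2 change was -4.93 at 5 h and -5.75 at 9 h, beside -0.11 and -0.15 over all genes. The order of the genes at 9 h was not that at 1 h. TDH1 stayed the most reduced (log2 -8.87 ± 0.51), and ADH1 was the least reduced (-4.28 ± 0.36, adjusted p = 8.75e-09), while TDH3 had reached -5.08 ± 0.22. PDC1 went the other way, with -5.29 at 9 h beside -5.85 at 1 h, although the difference between these hours was not tested.

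The poly(A) tag counts, taken from the same cultures by a separate library type, gave the same count of members. All 10 fell at 1 h (14.4% of all genes tested), at 5 h (19.1%) and at 9 h (18.5%), with members' medians of -4.32, -4.53 and -5.46 and all-gene medians of 0.03, 0.03 and 0.00. With library sizes alone as the scaling, the all-gene medians of the tags became 0.43, 0.38 and 0.55, with 65.1, 64.0 and 71.3% of calls upwards in place of 43.7, 49.5 and 47.9%, and all 10 members were still called lower at each of these hours. TDH3 tags were at 15639 and 12205 CPM at 1 h, against 109922 and 77912 at 0 h. The early meiotic markers summed to 4091 and 4283 CPM of RNA at 1 h, against 1045 and 1244 at 0 h, with all 8 detected in each library. Their part in the members' fall was not tested.

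**Figure D1:**
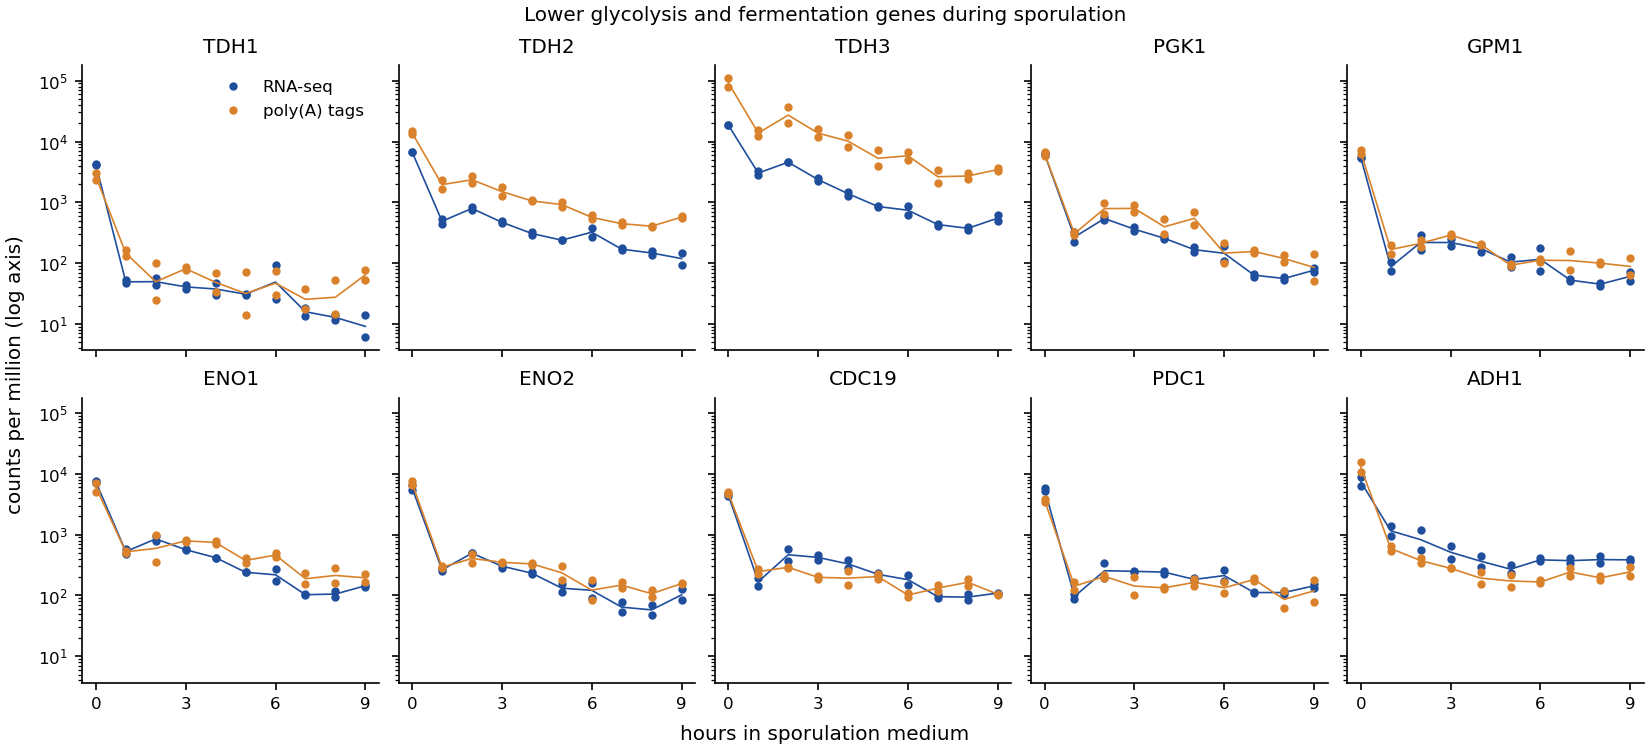
RNA and poly(A) tag levels of the 10 genes (vertical, CPM on a log axis) by hours in sporulation medium (horizontal), with a point per library and a line through the geometric means of 2 libraries. Every gene has its highest level at 0 h, and in RNA TDH1 falls furthest, to 13.8 and 6.01 CPM at 9 h.

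The genes most like the 10 over the sporulation hours were ADE17 (Pearson r = 0.993), SNZ2 (0.993), SHM2 (0.991), YCR013C (0.993) and YKL153W (0.984), by correlation with the mean profile of the members over 10 hourly means. ADE17 acts in purine synthesis, SHM2 in one-carbon metabolism and SNZ2 in vitamin B6 synthesis. YCR013C and YKL153W carry systematic numbers next to those of PGK1 and GPM1 and have no entry in the annotation used, and reads from overlapping genes could not be separated here because the strand setting of the counting is not given. Among the members, r with the mean profile lay between 0.921 (ADH1) and 0.993 (ENO2). That mean includes each member itself, so a high r is partly built in for the members. All points share the same 20 libraries, and the values are a description.

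Paralogues did not keep their proportions. Within each library the ratio of copies of equal length is free of the scaling between libraries. The log2 ratio of TDH1 to TDH3 in RNA ran between -2.16 at 0 h and -6.52 at 2 h over the 10 hourly means, a span of 4.36 beside a spread between replicates of 0.377 (permutation test over the groups, 100000 resamples, adjusted p = 8.5e-05 over 17 tests, from the smallest p these resamples can give, 1e-05). TDH1 made up 1.41 and 1.35% of TDH counts at 1 h, against 13.7 and 14.4% at 0 h. In the tags the same ratio missed the threshold (adjusted p = 0.308).

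TDH2 moved against TDH3 as well. Their log2 ratio in RNA ran between -2.63 at 1 h and -1.20 at 6 h (span 1.43, permutation test, adjusted p = 8.5e-05), and between -2.41 before transfer at 1 h and -1.27 before transfer at 7 h in the return-to-growth series (adjusted p = 0.0376). The tags missed the threshold in both series (adjusted p = 0.0816 and 0.199), and those of sporulation passed it with a pseudocount of 5 (adjusted p = 0.0435). With a replicate block the return-to-growth RNA missed the threshold and the sporulation tags passed it. Because the last 72 coding bases of TDH2 and TDH3 are identical, reads that fall wholly within them cannot be placed on 1 gene by sequence.

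For the enolase genes a change of ratio was detected on return to growth and not during sporulation. In sporulation the log2 ratio of ENO1 to ENO2 lay between 0.33 at 0 h and 0.99 at 1 h (permutation test, adjusted p = 0.343 for RNA and 0.177 for tags). In return to growth it lay between -2.40 at 20 min from 1 h and 1.19 before transfer at 1 h, a span of 3.59 (adjusted p = 0.00833). ENO1 made up 68.5 and 70.4% of enolase RNA counts before transfer at 1 h, 55.3 and 63.4% at 5 min and 13.6 and 18.4% at 20 min. From 7 h the share was 65.5 and 56.5% before transfer, 34.2 and 36.6% at 5 min and 58.5 and 53.7% at 20 min, so it was lowest at 5 min. In the tags the ratio missed the threshold (adjusted p = 0.177), as did its tail difference, which ran between -5.62 and 4.11 nt (adjusted p = 0.0782).

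**Figure D2:**
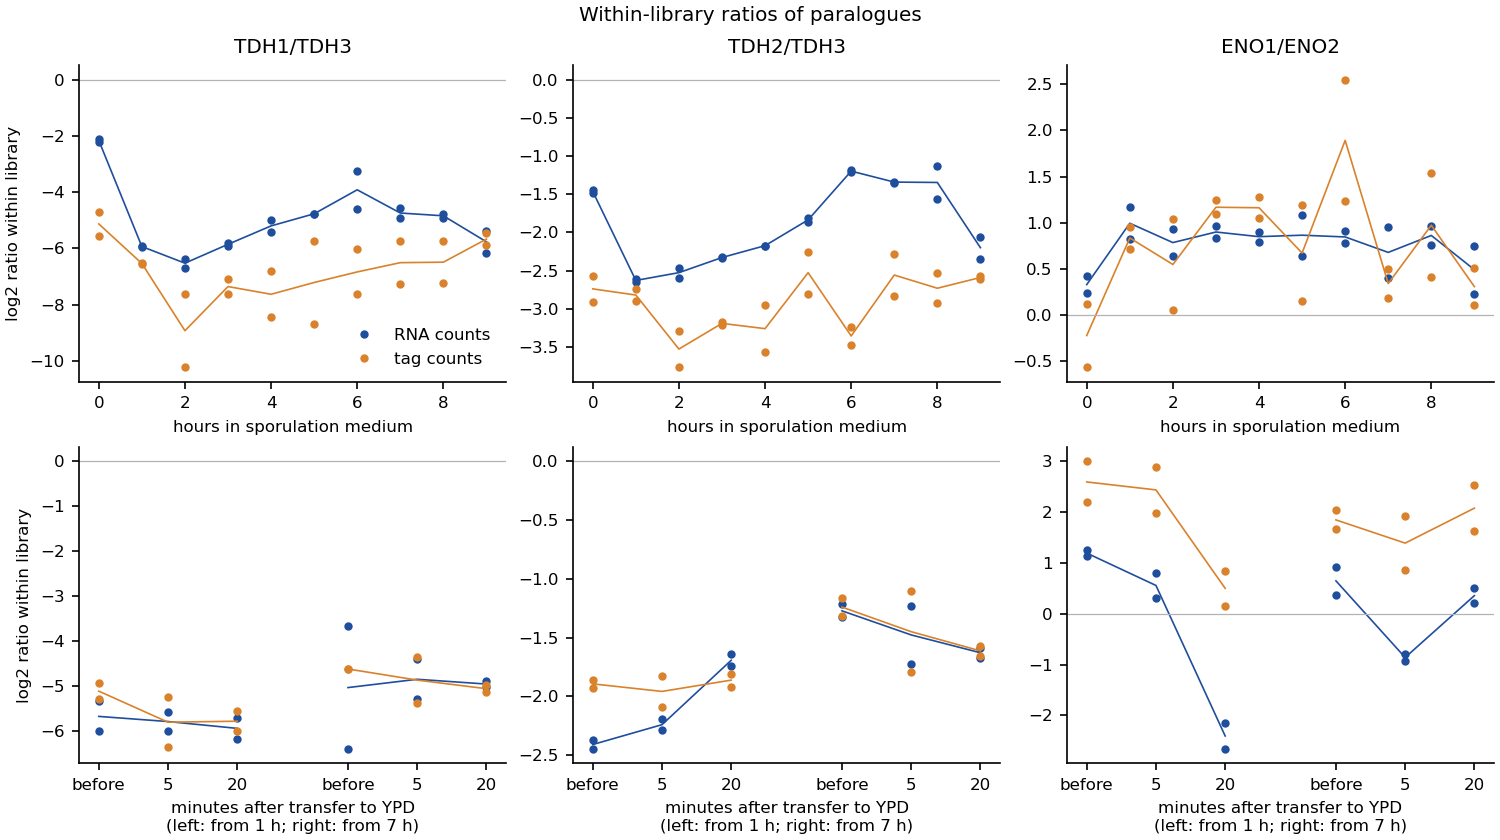
Log2 ratios of TDH1 to TDH3, TDH2 to TDH3 and ENO1 to ENO2 within each library (vertical), for RNA and tags, by hours in sporulation medium (upper row) and minutes after transfer to YPD (lower row); points are libraries and lines join group means. TDH1 to TDH3 in RNA drops between 0 h (-2.16) and 2 h (-6.52), and ENO1 to ENO2 in RNA is lowest at 20 min from 1 h (-2.40).

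On return to glucose from 1 h of SPO, CDC19 and PDC1 rose, most of the genes for the shared reversible steps fell, and ADH1 fell at 5 min and was not called at 20 min. PDC1 was at 164 and 267 CPM before transfer, 591 and 503 CPM at 5 min and 4680 and 3928 CPM at 20 min. CDC19 was at 194 and 308 CPM before transfer, 407 and 432 CPM at 5 min and 1139 and 1149 CPM at 20 min. Neither gene had overlapping libraries between times.

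At 5 min from 1 h, 2 members had risen (27.4% of all genes tested) and 7 had fallen (46.7%) by edgeR. PDC1 rose by 1.36 (adjusted p = 2.78e-07) and CDC19 by 0.76 (adjusted p = 0.000105) on the log2 scale. ADH1 fell by 0.96 (adjusted p = 4.42e-07), and ENO2 did not pass (-0.35, adjusted p = 0.052). The calls of TDH1, TDH2 and TDH3 (-0.61, -0.33 and -0.50) were lost without replicate 2 of the cells before transfer, with RLE size factors and in DESeq2, and the members' median of -0.56 was close to the all-gene median of -0.43.

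At 20 min from 1 h, 2 members had risen (38.4% of all genes tested) and 6 had fallen (42.7%). PDC1 rose by 4.34 ± 0.22 (SE, adjusted p = 7e-21) and CDC19 by 2.20 ± 0.17 (adjusted p = 2.02e-15) on the log2 scale. ENO1 fell the most, to 62.6 and 83.9 CPM at 20 min, against 660 and 1126 before transfer (log2 -3.58 ± 0.21, adjusted p = 3.83e-19). ENO2, its copy, was at 397 and 372 CPM at 20 min, against 304 and 473 before transfer (-0.01 ± 0.16, adjusted p = 0.979), so its libraries overlapped.

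PGK1 fell to 88.1 and 115 CPM at 20 min, against 348 and 504 before transfer (log2 -2.04 ± 0.17, adjusted p = 4.21e-14). TDH1 (-1.40 ± 0.26), TDH3 (-1.22 ± 0.17), TDH2 (-0.50 ± 0.15) and GPM1 (-0.42 ± 0.16) fell by less, and ADH1 was not called (-0.18 ± 0.15, adjusted p = 0.248). The TDH2 call was lost without replicate 2 before transfer (-0.33, adjusted p = 0.0673), as was that of GPM1 (-0.28, adjusted p = 0.169), and DESeq2 did not call TDH1 (adjusted p = 0.0905) or GPM1 (0.193). With library sizes alone, the all-gene median was -0.77 in place of -0.10 and 32.6% of calls were higher in place of 47.3%, and ENO2 (-0.68) and ADH1 (-0.86) were then called lower. PDC1 and CDC19 rose under each scaling and without each of the libraries. The 8 early meiotic markers summed to 50.4 and 47.4 CPM at 20 min, against 4206 and 3309 before transfer.

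From 7 h, PDC1 and CDC19 had their highest levels at 5 min and not at 20 min. PDC1 was at 154 and 167 CPM before transfer, 530 and 981 CPM at 5 min and 244 and 270 CPM at 20 min, and CDC19 at 127 and 127, 323 and 258, and 153 and 164 CPM. At 5 min, 2 members had risen (26.2% of all genes tested) and 4 had fallen (23.1%): PDC1 by 2.28 ± 0.25 (edgeR, adjusted p = 4.23e-10) and CDC19 by 1.18 (adjusted p = 1.52e-05) upwards, and PGK1 (-1.60, adjusted p = 9.33e-05), ENO1 (-1.08), TDH2 (-0.95) and TDH3 (-0.80) downwards. The ENO1 call was lost without replicate 1 before transfer and the TDH3 call without replicate 2 at 5 min.

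At 20 min from 7 h, 1 member had risen (17.9% of all genes tested) and 1 had fallen (11.2%). PDC1 was higher by 0.70 ± 0.27 (edgeR, adjusted p = 0.0426), a call that was lost when single libraries were left out and in DESeq2 (adjusted p = 0.126). TDH2 fell (-0.78, adjusted p = 0.00425). The 5 middle meiotic markers summed to 51767 and 47767 CPM before transfer in these cells. They were at 29030 and 32310 CPM at 5 min and 46876 and 49087 CPM at 20 min. The 8 early markers summed to 4006 and 4179 CPM before transfer, 715 and 683 at 5 min and 1925 and 1579 at 20 min. Whether the members' values at 20 min share in this return was not tested.

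The difference between the starting points was itself tested, as the response at 20 min from 7 h minus that from 1 h. In RNA, 3 members differed upwards (32.4% of all genes tested) and 2 downwards (28.4%). PDC1 differed by -3.64 ± 0.34 (edgeR, adjusted p = 2.93e-12), CDC19 by -1.90 ± 0.29 (2.61e-07) and ENO1 by 3.27 ± 0.36 (1.73e-10) on the log2 scale, and these calls held without each library in turn. PGK1 differed by 1.55 ± 0.35 (0.000178) and TDH3 by 0.72 ± 0.27 (0.018). PGK1 missed the threshold without replicate 1 before transfer at 7 h (1.24, adjusted p = 0.0598), and TDH3 missed it without that library (0.41, adjusted p = 0.319), without replicate 2 before transfer at 1 h (0.61, adjusted p = 0.0555), without replicate 1 at 20 min from 1 h (0.63, adjusted p = 0.0702) or from 7 h (0.65, adjusted p = 0.101), and in DESeq2 (0.59, adjusted p = 0.103). Scaled by library sizes alone, the all-gene median of this difference was 0.75 in place of 0.11, with 71.2% of calls upwards in place of 53.3%, and TDH1 (2.23) and ENO2 (0.78) were then called upwards.

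The starting levels differed before any glucose was added. Before transfer, 9 members were lower at 7 h than at 1 h by edgeR (32.8% of all genes tested), with a members' median of -2.22. PDC1 was at 154 and 167 CPM at 7 h, against 164 and 267 CPM at 1 h (log2 -0.44, adjusted p = 0.131). TDH3 was at 461 and 652 CPM at 7 h, against 3147 and 3731 CPM at 1 h, with no overlap.

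Of the members called in RNA at 20 min from 1 h, only PDC1, CDC19 and ENO1 were also called in the tags. There 2 members had risen (26.0% of all genes tested) and 1 had fallen (28.2%), where RNA had 6 falling. PGK1, TDH1, TDH2, TDH3 and GPM1 were called lower in RNA and not in tags. The members' median log2 change was 0.22 in tags and -0.46 in RNA. PDC1 tags were at 1036 and 1262 CPM at 20 min, against 189 and 143 before transfer (log2 2.78 ± 0.40, edgeR, adjusted p = 2.61e-07). CDC19 rose by 1.10 ± 0.34 (adjusted p = 0.00579) and ENO1 fell by 1.30 ± 0.39 (adjusted p = 0.00452). ENO1 lost its call without replicate 2 before transfer (-0.70, adjusted p = 0.199) or replicate 1 at 20 min (-0.84, adjusted p = 0.141), and CDC19 lost its call without replicate 1 before transfer (0.94, adjusted p = 0.0768), without replicate 1 at 20 min (0.95, adjusted p = 0.0521) and with library sizes alone (0.51, adjusted p = 0.196). That scaling moved the all-gene median of these tags to -0.74 in place of -0.14, with 33.9% of calls upwards in place of 47.9%.

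At 5 min from 1 h the tags of TDH1 (-1.29) and ADH1 (-1.28) had fallen, 2 members where 7.24% of all genes tested had, and library sizes alone left 1 of these calls and put 78.8% of all calls upwards in place of 64.2%. At 5 min from 7 h PDC1 tags rose by 1.8 on the log2 scale (edgeR, adjusted p = 0.000562; 1 member, 15.4% of all genes tested) and PGK1 tags fell by 1.16 (adjusted p = 0.0341; 1 member, 9.16%). The PDC1 call was lost without replicate 2 at 5 min (1.21, adjusted p = 0.0569) and the PGK1 call without replicate 2 before transfer. At 20 min from 7 h no member's tags were called in either direction, where 6.15% of all genes tested rose and 1.49% fell. The difference between starting points was called downwards for 2 members in the tags (18.5% of all genes tested), PDC1 (-2.46 ± 0.56, adjusted p = 0.000486) and CDC19 (-1.29 ± 0.48, adjusted p = 0.0313), and the CDC19 call was lost without any 1 of 5 libraries and with library sizes alone, which put 70.5% of all calls upwards in place of 50.6%.

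**Figure D3:**
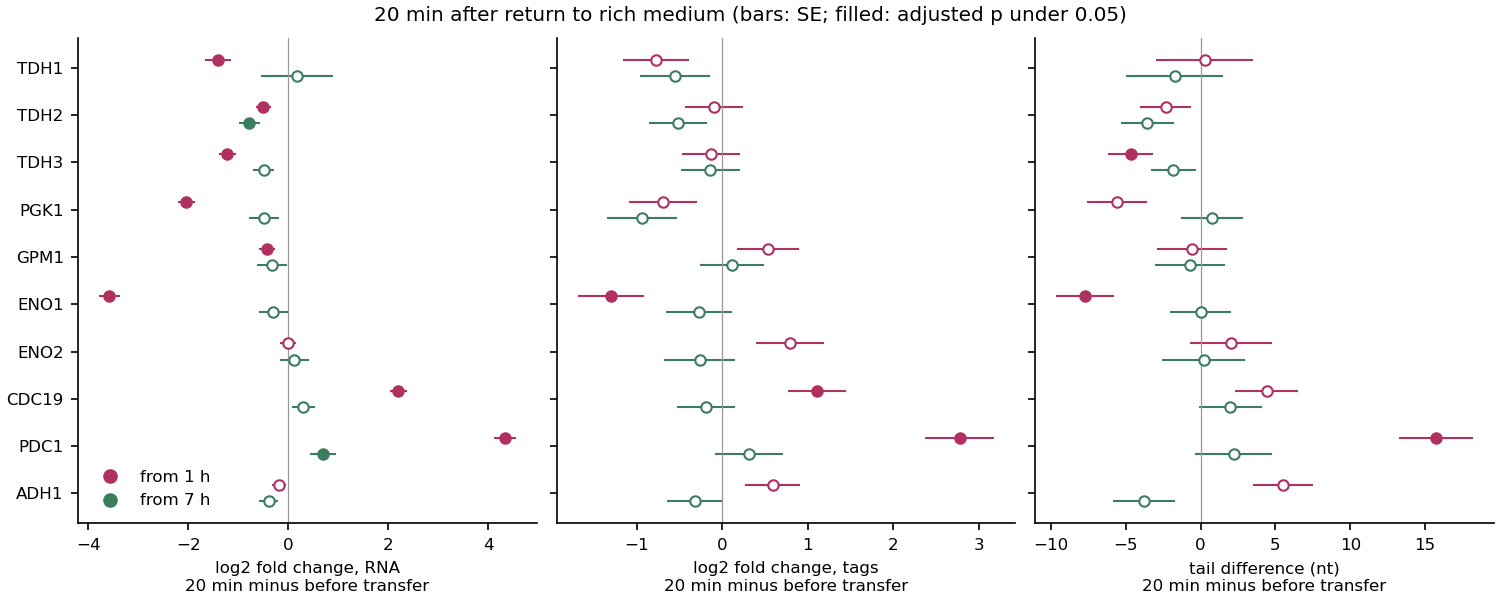
Change of each gene at 20 min after transfer relative to before transfer (horizontal, log2 for RNA and tags and nt for tails) in cells moved from 1 h or 7 h of SPO; bars are standard errors of 2 against 2 libraries and filled points passed an adjusted p of 0.05. From 1 h, PDC1 (4.34) and CDC19 (2.20) lie to the right and ENO1 (-3.58) to the left in RNA, whereas the points from 7 h gather near 0.

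The poly(A) tails of the 10 genes lay near their library's typical tail at 0 h of SPO and below it at 5 and 6 h. Tail values are means per gene in nt, used where a library held at least 20 tags of the gene. Library medians in the sporulation series covered only the 244 genes with that many tags in every library of the series. At 5 h the members' medians were 14.2 and 18.4 nt beside library medians of 21.6 and 24.2 nt, with every measured member below (8 and 9), against 16.9 and 19.1 nt beside 17.2 and 20.1 nt at 0 h, with 8 and 6 of 10 below. At 6 h they were 14.3 and 15.9 nt beside 20.9 and 23.7 nt, with 4 and 10 members measured. With limma, no member was called at 1 h (7 tested, 8.68% of all genes tested were longer) or at 5 h (8 tested, 9.30% were longer) in the tails as deposited. Replicate 1 had the shorter library median at every hour. Without a replicate block the test counts this offset as spread between replicates. With the block, TDH2, TDH3 and ADH1 were called longer at 1 h and TDH3 shorter at 5 h. The share of all genes called with the block is not given here. In the tails as deposited the all-gene median at 1 h was 4.26 nt, above the members' median of 2.90 nt. With library medians centred the members' median at 1 h was -2.01 nt, and 8 genes were longer and 8 shorter. With tails centred on library medians, 5 members were called shorter at 5 h than at 0 h: TDH3 (-6.29 nt, adjusted p = 0.000426), PGK1 (-7.69 nt), CDC19 (-6.44 nt), ENO1 (-6.25 nt) and TDH2 (-5.05 nt). Under that setting 38 of the 559 genes tested were shorter and 19 longer. With a minimum of 50 tags, ADH1 was called longer at 1 h (8.39 nt, adjusted p = 0.0225). At 9 h 1 of the 2 members measured, TDH3, was shorter (1.07% of all genes tested), with 11.7 and 13.4 nt at 9 h, against 16.9 and 18.8 nt at 0 h. Its change of -5.28 ± 1.14 nt (adjusted p = 0.0192) lost its call without replicate 2 of 0 h (-4.33, adjusted p = 0.238) or replicate 1 of 9 h (-4.47, adjusted p = 0.271).

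On return to growth the tail of PDC1 lengthened as its RNA rose. PDC1 tails were 13.7 and 17.5 nt before transfer at 1 h, 21.2 and 25.2 nt at 5 min and 33.6 and 28.9 nt at 20 min. At 5 min this was the 1 member called longer (11.1% of all genes tested; 7.62 ± 2.47 nt, limma, adjusted p = 0.0487), a call that was lost without any 1 of the 4 libraries. At 20 min PDC1 was the 1 member called longer (20.3% of all genes tested), by 15.71 ± 2.48 nt (limma, adjusted p = 0.000846), and it was still called without each library.

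ENO1 and TDH3 tails were shorter at 20 min, 2 members where 5.95% of all genes tested were shorter. ENO1 tails were 16.2 and 16.2 nt at 20 min, against 21.3 and 26.5 nt before transfer (-7.71 ± 1.95 nt, limma, adjusted p = 0.0113), and TDH3 tails 21.6 and 21.5 nt, against 25.5 and 26.9 nt (-4.67 ± 1.51 nt, adjusted p = 0.0329). The TDH3 call was lost without any 1 of the 4 libraries, and the ENO1 call without replicate 2 before transfer (-5.10, adjusted p = 0.176) or replicate 1 at 20 min (-7.69, adjusted p = 0.0675). The all-gene median rose by 4.03 nt in the same comparison. From 7 h, PDC1 tails were 12.3 and 18.5 nt at 20 min, against 12.8 and 13.6 nt before transfer, and the difference between starting points was called for PDC1 (-13.51 ± 3.49 nt, limma, adjusted p = 0.0403), 1 member where 6.42% of all genes tested were lower. That call was lost without any 1 of 5 libraries, and with tails centred on library medians (-7.91 nt, adjusted p = 0.103). TDH3 tails were shorter before transfer at 7 h than at 1 h (-9.96 ± 1.5 nt, limma, adjusted p = 0.0146). TDH3 was the 1 gene called of 2079 tested, and the all-gene median was -1.79 nt. This comparison was not recomputed under other settings or without single libraries.

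The mutant, degron-Xrn1 and pCup1-Ccr4 series have 1 library per group, so their differences have no replicate check and no p. They are log2 CPM differences with a prior count of 2 over genes averaging at least 10 counts, and a gene is called where it differs by more than 2-fold. Confidence intervals of shares are 95% Wilson intervals and cover counting error only.

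In wild type the proportions of the copies differed between stages. In vegetative, premeiotic and 5 h SPO cells, TDH1 had 11.1, 2841 and 24.1 CPM and ENO1 had 430, 1507 and 77.0 CPM. ENO2 had 20638, 796 and 81.8 CPM, and PDC1 28623, 2714 and 188 CPM. From vegetative to premeiotic cells, 2 members were higher (TDH1 and ENO1; 21.8% of all genes were higher) and 8 were lower (26.9%), with a members' median of -2.45. In premeiotic to 5 h cells all 10 were lower (23.7%), with a median of -4.00.

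TDH1 was 24.2% of TDH counts (22.7 to 25.8) in wild-type premeiotic cells, against 0.0331% (0.0174 to 0.0629) in vegetative cells. ENO1 was 65.4% of enolase counts (61.5 to 69.1) in premeiotic cells, against 2.04% (1.8 to 2.3) in vegetative cells. The intervals of the stages lay far apart. Together the 10 genes took 7.96% (7.9 to 8.0), 2.59% (2.53 to 2.65) and 0.117% (0.108 to 0.127) of RNA counts in vegetative, premeiotic and 5 h cells.

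At 5 h in SPO the 10 genes were higher in all 3 mutants than in wild type. They took 1.47% (1.4 to 1.5) of RNA counts in ccr4 cells, 2.14% (2.09 to 2.20) in pop2 cells and 0.522% (0.490 to 0.557) in xrn1 cells, against 0.117% (0.108 to 0.127) in wild type. All 10 members were higher in ccr4 cells (22.8% of all genes), with a median log2 difference of 3.39, and all 10 in pop2 cells (20.6%), with a median of 3.67. In xrn1 cells 7 were higher (21.1%), with a median of 1.27, and with library sizes alone, where the all-gene median was 0.60, 9 were.

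PGK1 had 978 CPM in ccr4, 1611 in pop2 and 253 in xrn1 cells at 5 h, against 62.6 in wild type. TDH3 had 3789, 6181 and 1687 CPM in the same mutants, against 310 in wild type. ADH1 differed least in the deadenylase mutants, with 1289 CPM in ccr4 and 1094 in pop2 cells, against 325 in wild type (log2 1.98 and 1.74). PDC1 had 226 CPM in xrn1 cells, against 188 in wild type, and was the member with the smallest difference there (0.26). Tags gave the same direction, with 10 members higher in ccr4 (22.4% of all genes), 10 in pop2 (20.0%) and 6 in xrn1 cells (20.1%), and medians of 3.78, 3.82 and 1.41.

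Meiotic markers were low in the mutants at that hour. The 5 middle meiotic markers summed to 44.8, 59.5 and 76.7 CPM in ccr4, pop2 and xrn1 cells, against 32517 CPM in wild type and 46.7 CPM in vegetative wild type. SPR3 was at 0 in pop2 and SPS1 at 0 in xrn1 cells. The 8 early markers summed to 695, 1539 and 2783 CPM, against 9801 CPM in wild type, with SPO11 at 0 in ccr4 cells. In these libraries the meiotic stage and the deleted gene cannot be told apart. Within each mutant, RNA at 5 h was lower than in its own premeiotic cells for 10 members in ccr4 (9.81% of all genes), 9 in pop2 (11.6%) and 6 in xrn1 cells (14.9%), with medians of -2.87, -1.90 and -1.20.

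**Figure D4:**
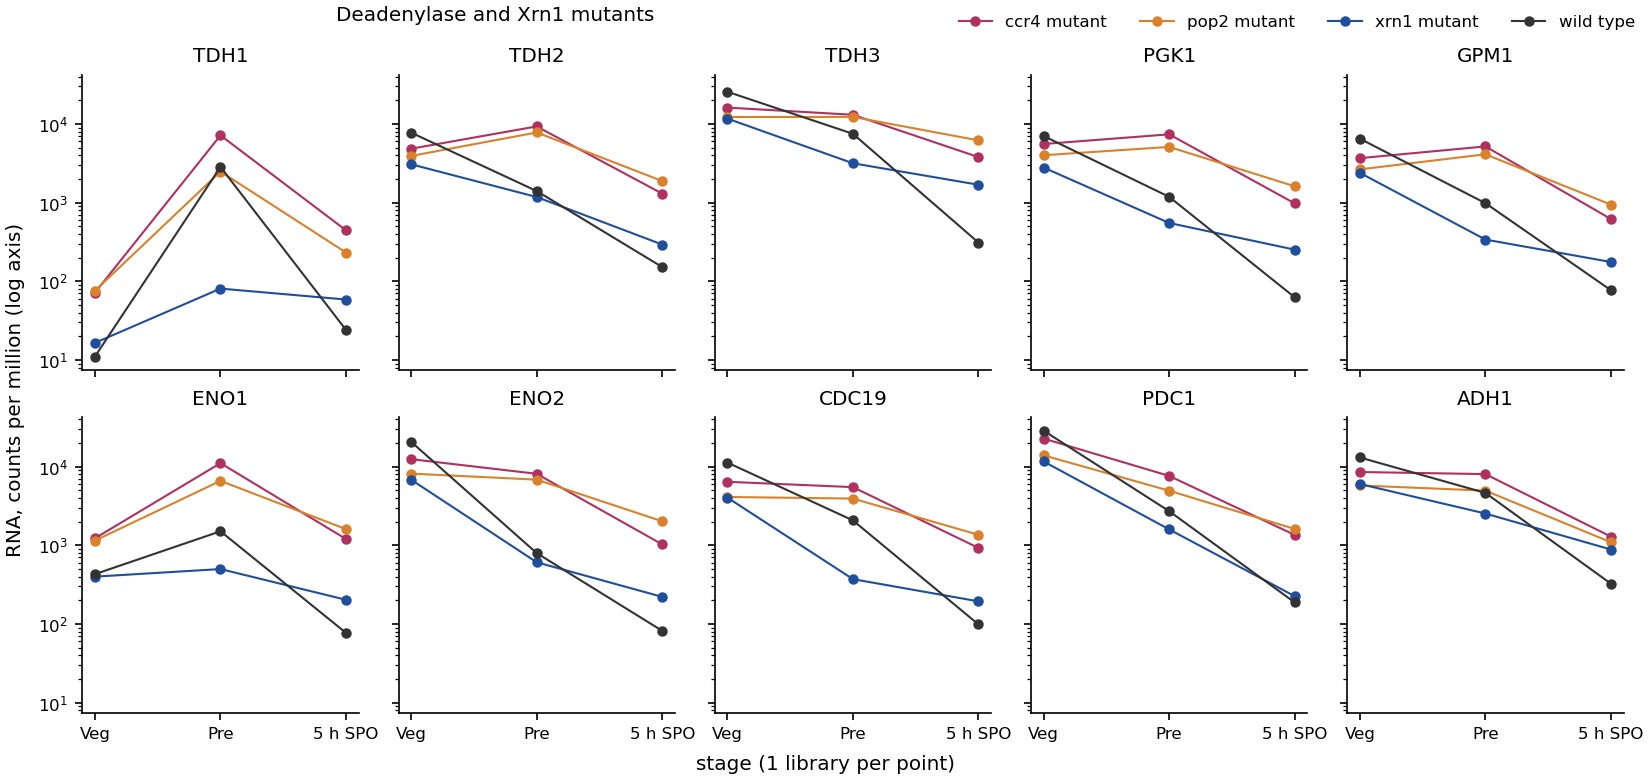
RNA level of each gene (vertical, CPM on a log axis) in vegetative, premeiotic and 5 h SPO cells (horizontal) of ccr4, pop2 and xrn1 mutants and wild type, with 1 library per point. At 5 h the wild type lies lowest for every gene, for example 62.6 CPM of PGK1 against 978 in ccr4 and 1611 in pop2 cells.

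In premeiotic cells the deadenylase mutants also held more of these RNAs. Higher members numbered 8 in ccr4 cells (19.1% of all genes; median 1.94) and 5 in pop2 cells (18.4%; median 1.49), and 6 members were lower in xrn1 cells (14.3%; median -1.17; 4 with library sizes alone). In tags 6 members were higher in ccr4 (16.7% of all genes, median 1.41) and 4 in pop2 cells (18.3%, median 0.67). In xrn1 cells 9 were lower in tags (17.4%, median -1.69). ENO2 RNA was at 8106 CPM in ccr4, 6834 in pop2 and 609 in xrn1 cells, against 796 in wild type. TDH1 had 7162, 2483 and 80.8 CPM, against 2841 in wild type, and was 1.83% of TDH counts in xrn1 cells against 24.2% in wild type. The early markers summed to 585, 463 and 149 CPM in these mutants, against 3272 CPM in wild type, with SPO11 at 0 in ccr4, pop2 and wild-type cells and MEI4 at 0 in ccr4 and pop2 cells. Their part in the result was not tested.

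In vegetative cells the direction depended on the gene and on the scaling. TDH1 and ENO1, the copies that are scarce in YPD, were the 2 members higher in ccr4 (7.52% of all genes) and the 2 higher in pop2 cells (10.2%). TDH1 had 71.7 and 75.9 CPM in ccr4 and pop2 cells, against 11.1 in wild type, and ENO1 had 1228 and 1148 CPM, against 430. ENO1 was 8.98% (8.57 to 9.41) of enolase counts in ccr4, 12.3% (11.7 to 13.0) in pop2 and 5.54% (4.95 to 6.19) in xrn1 cells, against 2.04% (1.8 to 2.3) in wild type, a ratio that does not depend on the scaling. Of the other members, 6 were lower in pop2 (7.36%) and 8 in xrn1 cells (9.28%; median -1.31), but with library sizes alone none was lower in either strain, and the all-gene median was then 0.45 in pop2 and 0.62 in xrn1 cells.

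In degron-Xrn1 cells 30 min after auxin and copper were added, ENO1 differed most among the 10. The labels list auxin and copper for the 30 min library alone, so they and a loss of Xrn1 cannot be told apart. It had 758 CPM at 30 min, against 220 CPM at 0 min (log2 1.78) and 581 CPM in the wild type of that experiment, and was the 1 member past 2-fold (9.96% of all genes were higher). Its tags were higher by 1.70. The other 9 members lay between -0.64 and 0.69, and with library sizes alone, where the all-gene median was 0.33, 1 more was past 2-fold. ENO1 was 6.20% (6.02 to 6.39) of enolase counts at 30 min, against 2.03% (1.81 to 2.28) at 0 min and 3.31% in wild type, so the 0 min library had the lowest share. XRN1 RNA was at 121 CPM at 30 min and 129 at 0 min, which says nothing of a protein degraded by a degron.

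After 60 min of Ccr4 induction the RNA of all 10 genes was lower, 4 of them past 2-fold (3.79% of all genes; members' median -0.89). PDC1 had 8532 CPM at 60 min, against 19715 CPM at 0 min and 21137 CPM in wild type (log2 -1.21 for 60 against 0 min), and CDC19 had 4339 CPM, against 9925 and 10301 CPM (-1.19). TDH1 (-1.09) and ENO2 (-1.05) were the others past 2-fold. With library sizes alone none was, and the members lay between -0.71 and 0.21 beside an all-gene median of 0.50. Tags of the same cultures lay between -0.33 and 0.89 with none past 2-fold, so the assays differed here. CCR4 RNA itself was at 492 CPM at 60 min, against 105 at 0 min and 141 in wild type. The labels list copper for the 60 min library alone, so Ccr4 induction and copper cannot be told apart in this series.

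The tails of these genes were short for their libraries in strains that have Xrn1. Library medians here covered 4385 genes in the mutant series, 4286 with degron-Xrn1 and 2179 with pCup1-Ccr4, more than in the sporulation series. In wild-type vegetative, premeiotic and 5 h cells the members' median tail was 29.5, 23.0 and 27.9 nt, beside library medians of 37.6, 33.4 and 36.4 nt, and all 10 were below the library median in each stage, as in the ccr4 and pop2 cells. In xrn1 cells the members' medians were 24.8, 22.4 and 20.0 nt, beside library medians of 23.3, 19.7 and 18.7 nt, and only 2, 2 and 4 members were below. Degron-Xrn1 cells gave 3 members below at 30 min, against 10 at 0 min. PGK1 had the shortest tail of the 10 in vegetative cells of each strain, with 27.4, 19.1 and 12.6 nt in ccr4, pop2 and xrn1 cells, against 17.9 nt in wild type.

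In ccr4 vegetative and premeiotic cells all 10 members had tails more than 5 nt longer than in wild type, as did 94.2% and 72.8% of all genes. The members' medians were 9.00 and 9.63 nt, beside 11.26 and 8.71 nt over all genes. In vegetative pop2 cells 2 members were longer (41.3%). At 5 h the sign was the other one, with 5 members shorter in ccr4 (18.8%) and 4 in pop2 cells (23.4%). TDH1 tails were 38.0 nt in vegetative ccr4 cells, against 30.7 nt in wild type, and 19.8 nt at 5 h in ccr4 cells, against 33.2 nt in wild type.

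Without Xrn1, tails were shorter in nearly all genes and in some of the members. In xrn1 cells 5 members were shorter in vegetative cells (91.3% of all genes), with a median difference of -4.77 nt beside -14.67 nt over all genes. In premeiotic cells 2 members were longer (0.398%) and 2 shorter (92.7%): TDH1 by 9.44 nt and ENO1 by 8.08 nt upwards, and TDH3 by -6.59 nt and PGK1 by -5.23 nt downwards. At 5 h 9 were shorter (98.5%), with a median of -10.27 nt beside -17.55 nt. In the degron-Xrn1 series a loss of Xrn1, auxin and copper cannot be told apart. With degron-Xrn1 3 members were shorter at 30 min than at 0 min (TDH1, GPM1 and PDC1; 86.7%), with a median of -4.44 nt beside -11.68 nt.

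After Ccr4 induction the tails of most members were shorter, and here too the added copper and the induced Ccr4 cannot be told apart. By 60 min 9 of the 10 had tails more than 5 nt shorter (48.9% of all genes), with a median of -8.23 nt beside -4.92 nt over all genes. TDH3 tails were 14.1 nt at 60 min, against 24.4 nt at 0 min and 24.7 nt in wild type. PGK1, already short, was the exception, with 10.2 nt at 60 min, against 12 nt at 0 min. Members' and all-gene medians share libraries and were not tested against each other.

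**Figure D5:**
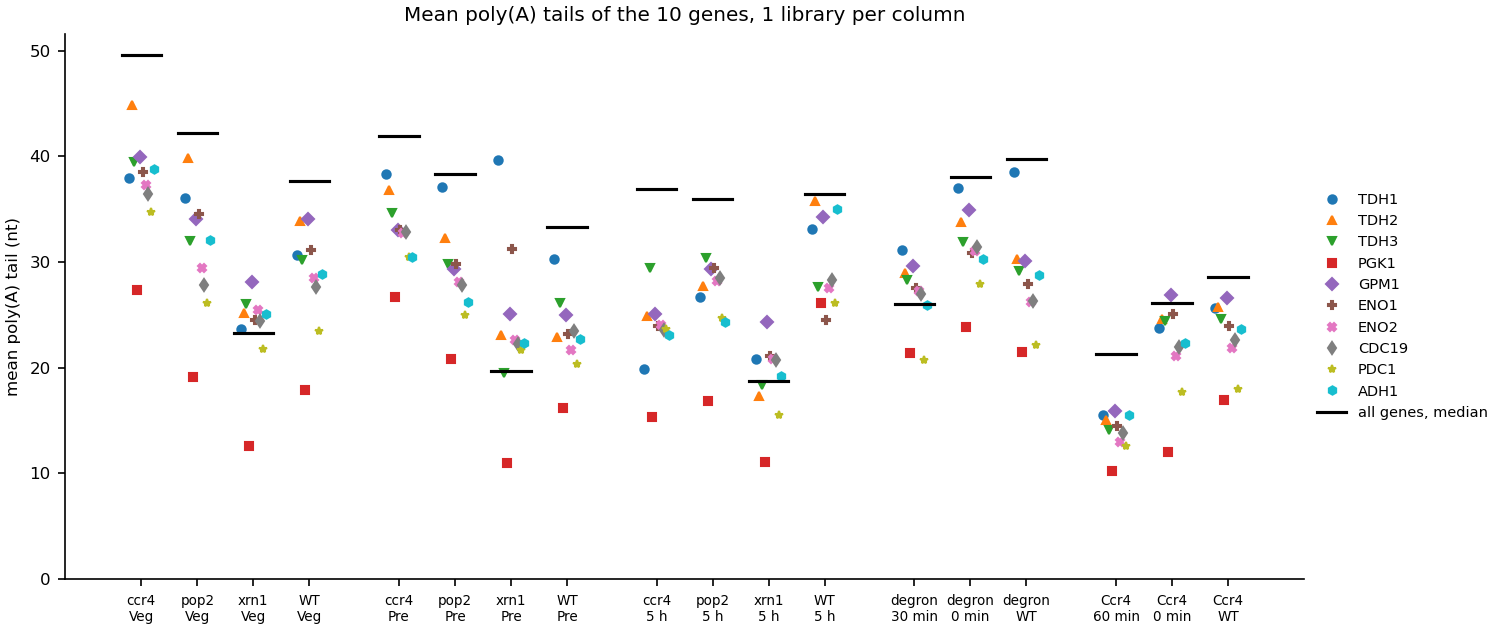
Mean poly(A) tail of each of the 10 genes (vertical, nt) in the mutant, degron-Xrn1 and pCup1-Ccr4 libraries (horizontal, 1 library per column), with a black bar for the median of all genes. The genes lie below the bar in wild type (29.5 against 37.6 nt in vegetative cells, medians) and around it in xrn1 cells (24.8 against 23.3 nt).

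RNA libraries in which the RNA was fragmented before adapter ligation differed in the same direction in wild type. In them 9 members were lower at 5 h of SPO than in vegetative cells (27.2% of all genes), and TDH1 was higher by 0.69 on the log2 scale, where it was higher by 0.93 in the libraries ligated first. The log2 difference of ENO2 was -7.83 (-7.92 in the libraries ligated first), that of PDC1 -7.33 (-7.23) and that of PGK1 -5.78 (-6.74). ENO1 was 53.0% of enolase counts at 5 h, against 2.16% in vegetative cells. In vegetative xrn1 cells 8 members were lower than in wild type (14.4%; 5 with library sizes alone), and ENO1 was 9.19% of enolase counts, against 2.16% in wild type.

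Tags and RNA did not give the same relation for every gene, which limits levels and differences. After Ccr4 induction, for example, the members' median log2 difference was -0.89 in RNA and 0.27 in tags. PGK1 tags were at 721 CPM in wild-type vegetative cells and 196 in the wild type of the pCup1-Ccr4 experiment, where its RNA was at 7022 and 7285 CPM, but at 6841 and 5782 CPM at 0 h of the sporulation series, where its RNA was at 6416 and 5997 CPM. TDH2 was 49.5% of TDH tags in the wild type of the pCup1-Ccr4 experiment, beside 24.7% of TDH RNA counts. TDH1 was 2.52% of TDH tags at 0 h of the sporulation series, beside 14.1% of TDH RNA counts (means of 2 libraries). Its log2 ratio to TDH3 was -5.13 at 0 h and -5.67 at 9 h in tags, against -2.16 and -5.76 in RNA.

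Other genes of the pathway were counted in lists. In RNA, 28.4% of all genes tested rose and 29.3% fell at 1 h of SPO, and 30.0% rose and 37.6% fell at 5 h. All 8 genes of upper glycolysis fell at 1 h (edgeR; median -2.56) and at 5 h (median -3.05), among them HXK2, the hexokinase of glucose growth (-4.28 at 5 h), and FBA1, the aldolase (-4.21). Of 11 genes of gluconeogenesis, the glyoxylate cycle and acetate use, 5 rose and 4 fell at 1 h, and 2 rose and 8 fell at 5 h, with ALD6, an acetaldehyde dehydrogenase, at -5.43 and FBP1, fructose bisphosphatase, at -4.00. Of 12 minor isozymes tested, 8 fell at 5 h, such as ADH5 (-2.82) and PYK2, the second pyruvate kinase (-2.80). Of 9 regulators, 2 rose and 4 fell at 5 h, near the shares over all genes, with TYE7, an activator of glycolytic genes, at -2.83 and SIP4 at 2.27.

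At 20 min from 1 h, 4 of the 8 upper glycolytic genes rose and 3 fell, near the shares over all genes (38.4% rose and 42.7% fell). HXK2 rose by 6.17 ± 0.24 and GLK1, the glucokinase, fell by 3.95 ± 0.17 on the log2 scale (edgeR, adjusted p = 4.94e-25 and 2.44e-23). Of the 11 genes of gluconeogenesis and acetate use, 1 rose and 10 fell, with ACS1, acetyl-CoA synthetase, at -9.29 and MDH2 at -7.45, and of the 9 regulators SIP4 (-7.64) and CAT8 (-5.81), activators of gluconeogenic genes, fell furthest. The glycerol phosphatases GPP1 (2.25) and GPP2 (3.30) rose, and GPD1 fell (-5.35). From 7 h, no upper glycolytic gene was called at 20 min in either direction (17.9% of all genes rose and 11.2% fell), 1 of the 11 gluconeogenic genes rose and 5 fell, and GPP1 (2.15) and GPP2 (2.22) rose as from 1 h.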

How the data were processed

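The deposited tables held RNA counts, poly(A) tag counts and mean tail lengths in nt per gene and library (unit: other), and raw counts for the 3 libraries fragmented first. Per the labels' protocols, RNA libraries had an adapter ligated to the 3′ end, were depleted of ribosomal RNA and then fragmented, and tag libraries came from poly(A)-selected RNA that was fragmented before ligation. Per the submitters' processing notes, the tools included STAR 2.5.3a, bedtools (2.26.0) and edgeR, with the genome build sacCer3; the sources used here do not state the strand setting, the treatment of reads matching several genes, duplicate removal or how tails were called.

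The 10 genes and the other gene lists were chosen with earlier results of these data known. Counts as deposited were fitted over all genes with edgeR 4.0.16 in R 4.3.3 (TMM, filterByExpr, quasi-likelihood test), and tails with limma 3.58.1, where each library fitted had 20 or more tags of the gene. Benjamini-Hochberg adjusted p-values under 0.05 were called. CPM are TMM-scaled. Groups with 1 library were compared with a prior count of 2, genes averaging at least 10 counts, and calls past 2-fold or 5 nt. Paralogue ratios used a pseudocount of 0.5 and 100000 resamples. Alternatives were RLE size factors, library sizes alone, DESeq2 1.42.0, no filter, other tag minimums, tails centred on library medians, a replicate block and each library left out, with a prior count of 0.5 and a pseudocount of 5 where these enter. The scripts were tested on simulated data. Named genes outside the 10 were the 5 most like the members' mean profile and up to 3 with the largest called change per list and comparison. Of the 6692 genes, 6008 matched the RefSeq annotation by systematic name.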

Additional observations from a re-analysis of the deposited data

Results flagged for a closer look

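The responses at 20 min after transfer to YPD differed between cells moved from 7 h and cells moved from 1 h of SPO, by a test of that difference, for 5 of the 10 genes in RNA. The difference, 7 h minus 1 h on the log2 scale, was -3.64 for PDC1, -1.90 for CDC19, 3.27 for ENO1, 1.55 for PGK1 and 0.72 for TDH3 (edgeR). In the tags it was -2.46 for PDC1 and -1.29 for CDC19. In tail length it was -13.51 nt for PDC1 (limma). The TDH3 and PGK1 calls in RNA, the CDC19 call in the tags and the PDC1 call in tail length were each lost when single libraries were left out, and the PDC1 tail call also with tails centred on library medians. The share of ENO1 in enolase RNA was 58.5 and 53.7% at 20 min from 7 h, against 13.6 and 18.4% at 20 min from 1 h.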

How the results depend on the processing

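Of 2112 values of the 10 genes recomputed under the alternatives, 1840 kept their direction and their side of the threshold, 74 lost a call, 47 gained one, and no called RNA or tag level changed sign, while 119 values that missed the threshold under both settings did. Of 220 counts over all genes, 50 moved by over 1.5 times. The counts of members called lower in RNA and tags at 1, 5 and 9 h of SPO stayed at 10 under each setting run.

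These counts of members called moved by over 1.5 times. For tails at 1 h (0 members) 50 tags gave 1 and the replicate block 3 (longer: TDH2 4.10, TDH3 2.90 and ADH1 8.39 nt), and at 5 h (0) centred library medians gave 5 and the block 1 (TDH3 -2.03 nt). For RNA at 20 min from 7 h (2) library sizes alone and DESeq2 gave 1, and at 5 min from 1 h (9) DESeq2 gave 5. Smaller moves included 6 with RLE size factors at 5 min from 1 h and 7 with library sizes alone for the RNA difference between starting points (5). For tags at 5 min from 1 h (2) library sizes alone gave 1. For tails at 5 min from 1 h (1) 10 tags and the block gave 0, at 20 min from 1 h (3) 50 tags and centring gave 5, and for the difference between starting points (1) 10 tags gave 0, 50 tags 2 and centring 3.

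In single libraries, library sizes alone gave 2 members for RNA of vegetative pop2 (8), 1 for xrn1 (8), 2 for degron-Xrn1 (1), 0 for pCup1-Ccr4 (4), 10 for tags of xrn1 at 5 h (6) and 5 for vegetative xrn1 fragmented first (8). Centring tails gave 1 for vegetative and for premeiotic ccr4 (10 each), 0 for vegetative pop2 (2), 10 for vegetative xrn1 (5), 10 for premeiotic xrn1 (4), 9 for degron-Xrn1 (3) and 3 for pCup1-Ccr4 (9).

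Leaving out 1 library gave 0 to 1 for the TDH3 tail at 9 h, 1 for RNA at 20 min from 7 h, 3 to 6 for the RNA difference between starting points, 1 to 3 for its tags and 0 to 2 for its tails, 1 to 2 for tags at 5 min from 1 h and from 7 h, 1 to 3 at 20 min from 1 h, 0 to 1 at 20 min from 7 h, 0 for tails at 5 min and 1 to 2 at 20 min from 1 h. Leaving out a whole replicate number was not run for the paralogue ratios. The cause of these moves was not tested.

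The replicate numbers were not taken as pairing the libraries, since the labels tie them to no shared source and not every pair of groups passed: the deviations of same-numbered RNA libraries correlated above 0.1 in 22 of 45 pairs of sporulation groups and in 0 of 15 in return to growth (tags, 36 of 45 and 1 of 15). This check did not cover tails. Replicate 1 had the shorter library tail median at every sporulation hour, for example 17.2 against 20.1 nt at 0 h and 17.8 against 19.8 nt at 9 h. It also had fewer tags at each of these hours. With the replicate block, TDH2 to TDH3 passed in sporulation tags (adjusted p = 0.0406, span 1.00; with a pseudocount of 5, 0.0435 and 1.02) and missed in return-to-growth RNA (0.0633, span 1.14).

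Centring tails on library medians turned these differences round, in nt. In vegetative ccr4 cells they were CDC19 -3.25, PGK1 -2.58, TDH3 -2.77, ENO1 -4.63, ENO2 -3.25, TDH1 -4.68, TDH2 -1.03, GPM1 -6.18, PDC1 -0.76 and ADH1 -2.06, and in premeiotic ccr4 cells TDH3 -0.0051, TDH1 -0.48, GPM1 -0.41 and ADH1 -0.82. In xrn1 cells at 5 h they were CDC19 10.13, PGK1 2.66, TDH3 8.47, ENO2 10.98, TDH1 5.34, GPM1 7.73, PDC1 7.11 and ADH1 1.91, in premeiotic xrn1 cells PGK1 8.47 and TDH3 7.10, and in vegetative xrn1 cells PGK1 8.96, ENO1 7.66, TDH1 7.32, TDH2 5.63 and GPM1 8.37. With degron-Xrn1 they were TDH1 6.11, GPM1 6.66 and PDC1 4.76. These tail differences thus stand in the report as deposited and are opposite in sign relative to the library median.

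Tail tests rest on few genes with enough tags in the sporulation series, and mutant results on 1 library per group.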
